A study of Rattus norvegicus with 8 samples.

Results

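The transient receptor potential (TRP) channels that sensory neurons use to detect heat, cold, irritants and stretch were measured in injured dorsal root ganglia (DRG) of rats given a histone deacetylase inhibitor (HDACI) or vehicle. The set held 9 genes, Trpv1, Trpv2, Trpv4, Trpa1, Trpm8, Trpm2, Trpm3, Trpc1 and Trpc6, listed by name. No gene entered by a measured value, but the list was chosen with earlier results of these data known. A gene counted as measured where the array annotation gave it a probe set with a single gene symbol, and 8 of the 9 were measured, each by 1 probe set, among 14497 genes in all. Trpv4 was not: the only probe set that lists it also lists Trpv1, so no value is given for Trpv4.

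All ganglia came from adult male Wistar rats, 14 days after the L5 spinal nerve on the same side had been cut. In the HDACI group (n = 4) an osmotic pump delivered MS-275, a class I HDAC inhibitor, intrathecally at 30 nmol per day, starting before the injury. The vehicle group (n = 4) received the dimethyl sulfoxide and saline solvent by the same route. Titles and source names mark these 4 samples as vehicle, although the treatment text that GEO holds for all 8 samples names MS-275, and the solvent is taken from the study's methods. Every sample was injured, so these arrays hold no measure of what the injury itself did, and whole ganglia were used, so fewer cells of a type and less RNA per cell cannot be told apart. The comparison asks whether HDACI treatment altered transcript levels in the injured ganglion. In L5 DRG the paper saw no clear difference in histone acetylation between drug and vehicle. It proposes that the drug may not have reached these ganglia in detectable amounts, possibly because the catheter lay high. Whether the drug acted in the ganglia was not tested here.

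The TRP channels of this set are cation channels of the plasma membrane that open to physical or chemical stimuli and depolarize the cell. In the DRG, Trpv1 responds to noxious heat, protons and capsaicin, Trpa1 to irritants such as mustard oil, and Trpm8 to cold and menthol. Trpm3 responds to heat and to the steroid pregnenolone sulfate, and Trpm2, a channel gated by ADP-ribose during oxidative stress, is also made by macrophages. Trpc1 and Trpc6 belong to the canonical subfamily, which acts downstream of phospholipase C.

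Levels are log2 values from robust multiarray averaging (RMA), so a difference of 1 is a doubling, and they are compared only within a gene. Array medians lay between 8.13 and 8.16, a likeness that the quantile step of RMA imposes. Of the 16 pan-neuronal genes, 0 were among the dimmest 30% of probe sets. Of the 12 measured nerve injury genes 1 was, the neuropeptide Nts (named after its values were seen), at 5.21 to 5.69. Some arrays differed in cell type markers. The summed skeletal muscle score, the mean deviation of 17 muscle genes from their own means over all arrays, was 2.55, 1.68 and 0.69 in vehicle replicates 1, 2 and 4 and between -1.26 and -0.83 in the other 5 arrays. HDACI replicate 4 had the highest macrophage score (0.44) and the lowest pan-neuronal score (-0.13), and vehicle replicate 4 had the highest nociceptor score (0.48). The pan-neuronal score of vehicle replicate 1 was nearly as low (-0.12).

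Start regions are shown for 3 of the genes: Trpv1, which varied between arrays together with Trpa1, Trpm8, which had the largest difference, and Trpm2, whose start region held more CG dinucleotides than the other 2. They are RefSeq sequences of assembly GRCr8, plus strand, from 250 bases before to 50 bases after the annotated start, in lower case with CG dinucleotides in capitals. Of the 9 genes 7 were matched by symbol, with 8 start regions in all, since Trpm3 had 2 of them.
Trpv1, chr10:58349686-58349985: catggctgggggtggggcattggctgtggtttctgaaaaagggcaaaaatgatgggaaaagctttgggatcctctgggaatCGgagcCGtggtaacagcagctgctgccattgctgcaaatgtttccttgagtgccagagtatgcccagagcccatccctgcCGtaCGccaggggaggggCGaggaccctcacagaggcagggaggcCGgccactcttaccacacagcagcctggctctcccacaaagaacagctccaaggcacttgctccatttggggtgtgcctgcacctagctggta
Trpm8, chr9:96351433-96351732: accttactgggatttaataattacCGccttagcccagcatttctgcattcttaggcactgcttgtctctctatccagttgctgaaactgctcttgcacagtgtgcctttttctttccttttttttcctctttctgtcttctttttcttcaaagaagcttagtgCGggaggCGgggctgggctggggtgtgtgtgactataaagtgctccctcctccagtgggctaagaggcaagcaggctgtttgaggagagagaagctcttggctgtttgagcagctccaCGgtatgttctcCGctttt
Trpm2, chr20:10704222-10704521: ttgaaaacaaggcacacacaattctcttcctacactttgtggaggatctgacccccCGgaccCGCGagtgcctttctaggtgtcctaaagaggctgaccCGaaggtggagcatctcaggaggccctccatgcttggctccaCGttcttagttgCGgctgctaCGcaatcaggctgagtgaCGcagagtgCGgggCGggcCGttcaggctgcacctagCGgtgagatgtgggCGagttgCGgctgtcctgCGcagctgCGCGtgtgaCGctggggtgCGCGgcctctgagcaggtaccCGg
The Trpv1 region held 6 CG dinucleotides and the Trpm8 region 5, against a median of 7 over 33469 rat start regions of the same length, while the Trpm2 region held 21. A GC box, searched as GGGCGG on both strands, was found in the Trpm2 and Trpv4 regions and occurs in 33.1% of all start regions. A TATA box, searched as TATAAA on both strands, began 54 bases before the Trpm8 start and occurs in 14.2% of them. None of the 8 regions held the AP-1 motif TGANTCA, which occurs in 7.33% of all regions. Histone acetylation at these regions was not analysed here, and a match of letters is a description only.

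None of the measured TRP channels passed the test for a change with HDACI. By limma with Benjamini-Hochberg adjustment, 0 of the 8 genes had an adjusted p under 0.05, and 0 of them had an unadjusted p under 0.05. Of all 28826 probe sets, 0% passed the adjusted threshold and 3.55% passed the unadjusted one. For none of the 8 genes did the 4 values of one group lie beyond the 4 of the other, which was the case for 2.1% of all probe sets. The differences, HDACI minus vehicle, lay between -0.18 (Trpm8) and 0.10 (Trpv2) on the log2 scale, with 5 genes lower and 3 higher in HDACI. Their median was -0.05, against 0.01 over all probe sets. The limma adjusted p was 0.9998 for each of the 8 genes. Exact permutation tests over the 70 relabellings, two-sided, gave p-values from 0.143 (Trpc1) to 0.914 (Trpa1), where 0.0286 is the smallest this design allows.

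**Figure D1:**
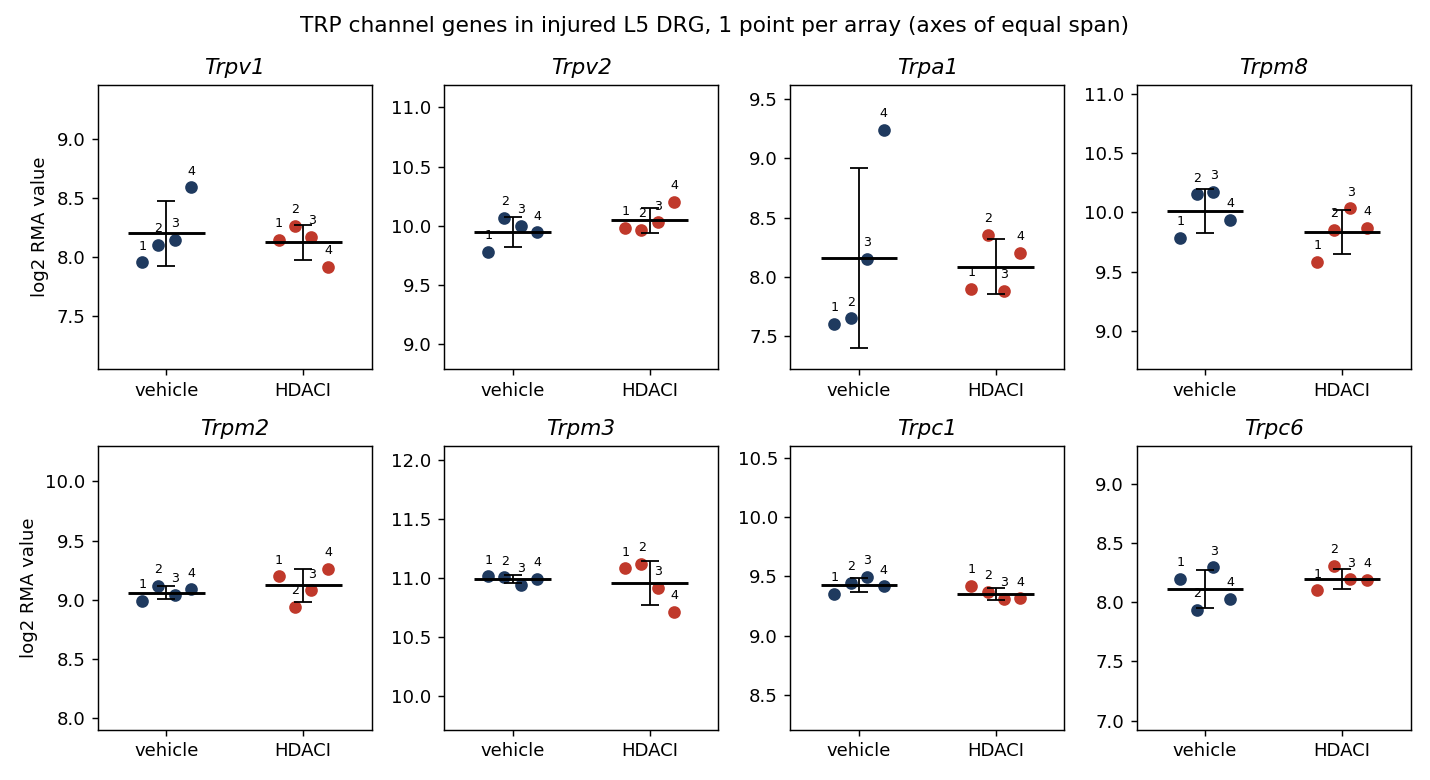
Log2 RMA values (y axis) of the 8 measured TRP channel genes, with 1 point per array numbered by replicate, vehicle in dark blue and HDACI in red, and with lines for the group means and bars for the SD (n = 4 each). The groups overlap for every gene, and vehicle replicate 4 lies highest for Trpv1 (8.59) and Trpa1 (9.24).

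Trpv1, the capsaicin receptor, measured 8.15, 8.26, 8.17 and 7.92 in HDACI replicates 1 to 4. In vehicle replicates 1 to 4 it measured 7.96, 8.11, 8.15 and 8.59. The 3 lower vehicle arrays fell between the lowest and highest HDACI values, and vehicle replicate 4 lay above every other array. The means were 8.13 ± 0.15 in HDACI and 8.20 ± 0.27 in vehicle (SD, n = 4 each). The difference was -0.07 ± 0.13 (SE), with a 95% confidence interval from -0.38 to 0.23. The ends of this interval are a 1.30-fold decrease and a 1.17-fold increase.

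Trpa1, the irritant receptor found in many Trpv1-expressing nociceptors, varied most. It measured 7.90, 8.35, 7.88 and 8.20 in the HDACI replicates and 7.60, 7.65, 8.15 and 9.24 in the vehicle replicates. The vehicle arrays held both the lowest and the highest value, 1.64 apart, a wider range than that of 99.3% of all genes. The means were 8.08 ± 0.23 in HDACI and 8.16 ± 0.76 in vehicle (SD, n = 4 each). With so large a spread, the difference of -0.08 ± 0.33 (SE) had an interval from -0.82 to 0.67, so a change of up to 1.77-fold down or 1.59-fold up lay within it.

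Trpm8, the receptor for cold and menthol, showed the largest difference of the set. It measured 9.58, 9.85, 10.03 and 9.87 in the HDACI replicates and 9.78, 10.15, 10.17 and 9.94 in the vehicle replicates. The HDACI values were shifted downward, but 3 of the 4 lay within the range of the vehicle arrays. The means were 9.84 ± 0.19 and 10.01 ± 0.19 (SD, n = 4 each). The difference was -0.18 ± 0.11 (SE, 95% interval -0.44 to 0.08), smaller than the SD within either group. By limma the unadjusted p was 0.159 with all arrays, 0.0274 with the replicate number as a block and 0.0305 with array weights. The adjusted p was 0.9998, 0.9998 and 0.701 in these fits. The difference shrank to -0.09 both without HDACI replicate 1 and with the pan-neuronal score as a covariate. The unadjusted p was then 0.408 and 0.498 by limma, fitted across all probe sets. Leaving out single arrays gave values from -0.25 to -0.09.

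Trpv2, a relative of Trpv1 that is also made by macrophages, measured 9.98, 9.97, 10.03 and 10.20 in the HDACI replicates. In the vehicle replicates it measured 9.78, 10.07, 10.001 and 9.94. HDACI replicate 4 was the highest array and vehicle replicate 1 the lowest, and the other 6 arrays lay close together. The difference was 0.10 ± 0.08 (SE, 95% interval -0.08 to 0.27). Leaving out single arrays gave 0.04 (without vehicle replicate 1) to 0.14 (without vehicle replicate 2), and 0.05 without HDACI replicate 4.

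Trpm2 measured 9.20, 8.94, 9.08 and 9.26 in the HDACI replicates and 8.99, 9.12, 9.04 and 9.09 in the vehicle replicates. The HDACI group held the lowest and the 2 highest values, with the vehicle arrays between them. The difference was 0.06 ± 0.07 (SE, 95% interval -0.10 to 0.23). It was 0.01 without HDACI replicate 4, 0.04 without HDACI replicate 1 or vehicle replicate 1, and 0.12 without HDACI replicate 2.

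Trpm3 measured 11.08, 11.12, 10.92 and 10.71 in the HDACI replicates and 11.02, 11.01, 10.94 and 10.99 in the vehicle replicates. The vehicle arrays were nearly alike (SD 0.03), while HDACI arrays lay both above and below them (SD 0.18). The difference was -0.03 ± 0.09 (SE, 95% interval -0.23 to 0.16) and 0.05 without HDACI replicate 4, the lowest array. Without HDACI replicates 1, 2 and 3 in turn it was -0.07, -0.09 and -0.02, and leaving out vehicle replicate 3 gave -0.05.

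The canonical channel Trpc1 was the least variable. It measured 9.42, 9.37, 9.31 and 9.31 in the HDACI replicates and 9.35, 9.45, 9.50 and 9.42 in the vehicle replicates. Its difference of -0.07 ± 0.05 (SE) had the narrowest interval of the set, -0.19 to 0.04, with a 1.14-fold decrease at its lower end. Leaving out single arrays gave -0.10 to -0.05. Trpc1 was also the only one of the 8 genes whose difference exceeded the larger SD of the 2 groups.

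Trpc6, a channel opened by diacylglycerol, measured 8.1003, 8.31, 8.19 and 8.19 in the HDACI replicates. In the vehicle replicates it measured 8.20, 7.94, 8.29 and 8.03. All but 1 of the HDACI values lay within the vehicle range. The difference was 0.08 ± 0.08 (SE, 95% interval -0.11 to 0.27). It was 0.02 without vehicle replicate 2, 0.05 without HDACI replicate 2 or vehicle replicate 4, and 0.14 without vehicle replicate 3.

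**Figure D2:**
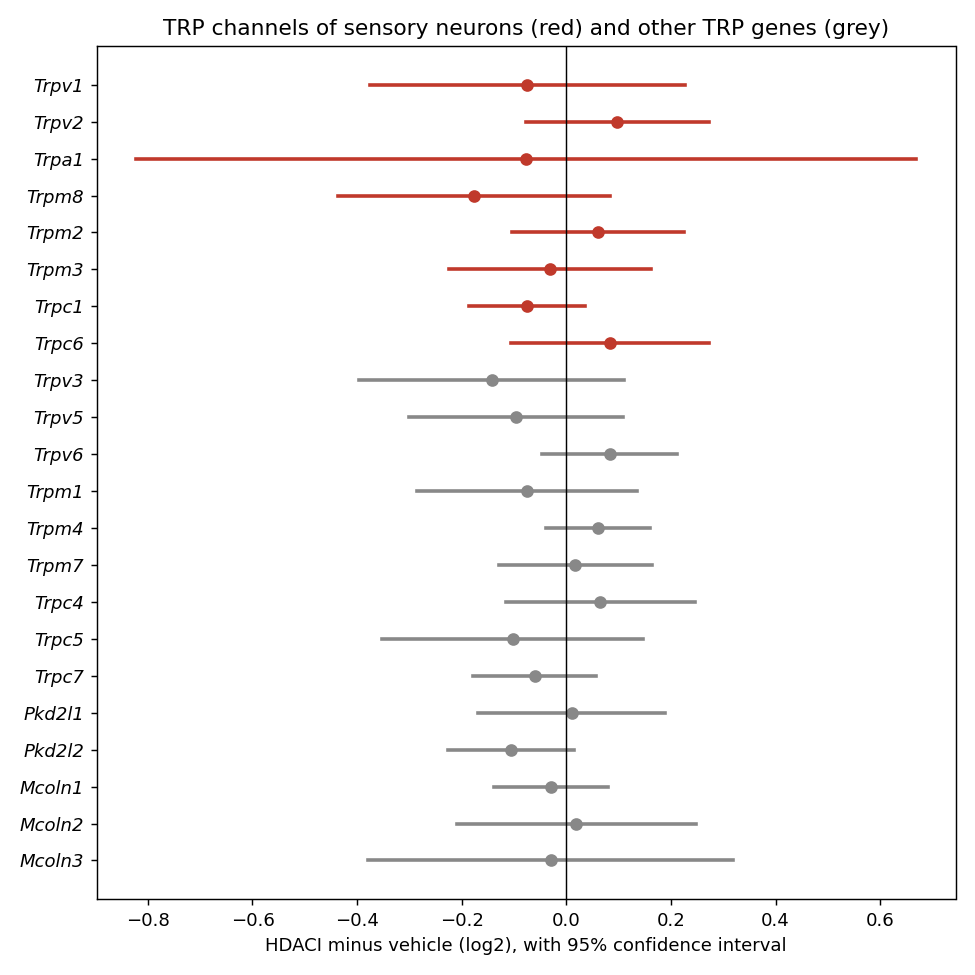
Difference between HDACI and vehicle (x axis, log2) with its 95% confidence interval from limma, for the 8 measured TRP channels of sensory neurons in red and the 14 other measured TRP genes in grey. Every interval includes 0, and that of Trpa1 is the widest, from -0.82 to 0.67.

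Other genes of the TRP superfamily gave no call either. Of 19 listed, 14 had a probe set of their own, with 6 higher, 8 lower and 0 past an adjusted or unadjusted p of 0.05 by limma, and a median of -0.03 (log2), which single left-out arrays moved between -0.050 and -0.014. Mean values of 9 of these 14 genes lay below the 30th percentile of all probe sets, the limit used here for dim probe sets. Pkd2l2, a polycystin relative (-0.11 ± 0.05), and the calcium-selective channel Trpv6 (0.08 ± 0.06, SE) had the smallest p.

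Among 27 measured genes that regulate or sensitize TRP channels, such as kinases, phospholipases and receptors for inflammatory mediators, 10 were higher, 17 were lower and 0 passed adjustment. The prostaglandin E2 receptor Ptger4 differed by -0.26 ± 0.09 (SE) and was the single gene of this list with an unadjusted p under 0.05 (unadjusted p = 0.0159 and adjusted p = 0.9998 by limma, fitted across all probe sets). Its HDACI arrays measured 8.76, 8.63, 8.89 and 8.93 and its vehicle arrays 8.98, 9.001, 8.997 and 9.26, without overlap. That 1 of 27 stands beside 3.55% of all probe sets past the unadjusted threshold and 2.1% without overlap, so the share is near the background. Cdk5r1, the activator of the kinase Cdk5, differed by -0.15 ± 0.07.

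Other channels of sensory transduction were mostly lower, with 11 of 13 below 0, a median of -0.05 and 0 past either threshold. The median was -0.13 without vehicle replicate 1, -0.085 with HDACI replicate 2 or 3 left out and -0.029 with vehicle replicate 4 left out. The mechanically gated channel Piezo1 differed by 0.14 ± 0.08 and the potassium channel Kcnk10 by -0.13 ± 0.09 (SE).

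Vehicle replicate 4 stood apart for 2 channels of nociceptors, Trpv1 and Trpa1. Relative to the highest of the other 7 arrays, it was higher by 0.89 for Trpa1 and by 0.33 for Trpv1 (log2). The other 6 TRP channels lay inside the range of those 7 arrays. Some genes that mark the same neurons, chosen after their values were seen, were also highest there. Calca, which encodes the peptide CGRP, measured 11.92 against 9.91 to 10.35 on the other arrays. The nociceptor sodium channels Scn10a and Scn11a measured 10.06 against 8.24 to 8.74, and 8.66 against 6.79 to 7.22. Tac1, the substance P precursor, measured 9.35 against 8.23 to 8.67. In all, 7 of the 13 measured nociceptor genes were highest in this array, where 15.8% of all genes were. The rest, P2rx3, Ret, Gfra1, Gfra2, Isl1 and Runx1, lay inside the range of the other arrays. Gfra2 and Runx1 were near its low end, at 10.39 against 10.35 to 10.92 and 10.45 against 10.31 to 10.78. The pan-neuronal score of this array was 0.07 and lay below those of vehicle replicates 2 (0.13) and 3 (0.09). Each of the 12 measured nerve injury genes lay inside the range of the other arrays in it, among them Atf3 at 12.65 and Npy at 13.48.

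**Figure D3:**
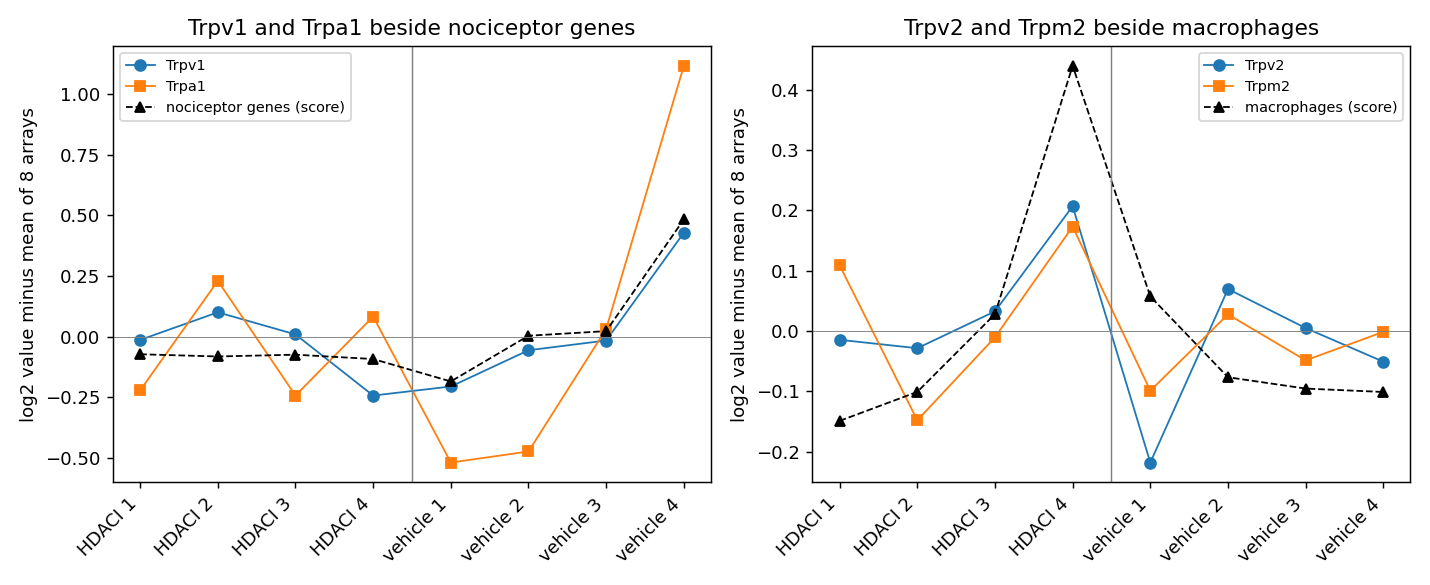
Log2 values minus the mean of all 8 arrays (y axis) for each array (x axis), for Trpv1 and Trpa1 beside the nociceptor score (left) and Trpv2 and Trpm2 beside the macrophage score (right). Vehicle replicate 4 is highest for Trpv1, Trpa1 and the nociceptor score, and HDACI replicate 4 is highest for Trpv2, Trpm2 and the macrophage score.

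Among single left-out arrays, only this one reversed the direction of both channels. Without vehicle replicate 4 the difference was 0.06 for Trpv1 and 0.28 for Trpa1, in the opposite direction to that with all arrays. The median of the 8 channels then went from -0.05 to 0.06. Without vehicle replicates 1 and 2, the arrays highest in muscle genes, vehicle replicate 4 made up one of the remaining 2 vehicle arrays, and the differences were -0.24 and -0.61. Without HDACI replicate 4, where Trpv1 was lowest, Trpv1 differed by -0.0057. None of these passed adjustment.

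Few of the channels varied together across arrays. Over the 28 pairs of genes the median Pearson's r was -0.05, as a description over 8 arrays that share their normalization and tissue. Trpv1 and Trpa1 were the most alike (r = 0.81), with r = 0.33 without vehicle replicate 4 and 0.96 without HDACI replicate 4. Trpv2 and Trpm2 followed (r = 0.70), with 0.44 without HDACI replicate 4 and 0.71 without vehicle replicate 4. Trpm3 ran opposite to both of them (r = -0.67 and -0.62), and these were -0.20 and -0.14 without HDACI replicate 4 and -0.67 and -0.62 without vehicle replicate 4.

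Relations to cell type scores were computed for each gene. With the pan-neuronal score, Trpc1 had Pearson's r = 0.80 (exact permutation p = 0.0213, adjusted over 16 relations 0.340), Spearman's rho = 0.81 (exact permutation p = 0.0218, adjusted 0.348) and r = 0.70 without the 2 arrays farthest from the median score. The other 7 genes had r between -0.46 and 0.62. The 16 relations also include those with the muscle score. That score split the arrays into 3 high and 5 low ones, so no correlation with it is given. Another 16 relations, to the nociceptor and macrophage scores, were added after the values had been seen. Trpv1 and Trpa1 followed the nociceptor score with r = 0.87 and 0.86 (exact permutation p = 0.0205 and 0.0392, adjusted 0.164 and 0.209). Spearman's rho was 0.52 and 0.36 (exact permutation p = 0.197 and 0.389, adjusted 0.524 and 0.623). Without the 2 farthest arrays, vehicle replicates 1 and 4, r was 0.11 and -0.35, so these relations rested on those samples. Trpm3 ran against the macrophage score (r = -0.88, exact permutation p = 0.0176, adjusted 0.164), with rho = -0.57 (exact permutation p = 0.151, adjusted 0.484) and r = -0.68 without HDACI replicate 4 and vehicle replicate 1. For Trpv2 and Trpm2, r with that score was 0.52 and 0.51, rho was 0.40 and 0.05, and r without those 2 arrays was 0.49 and -0.19. For Trpv1 and Trpc1, r was -0.59 and -0.66 (exact permutation p = 0.141 and 0.059, adjusted 0.451 and 0.236). Their rho was -0.74 and -0.57 (exact permutation p = 0.0458 and 0.151, adjusted 0.484 for both), and r without those 2 arrays was -0.15 and -0.62. Whether macrophages, neurons or nociceptors had a part in the levels of these channels was not tested.

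**Figure D4:**
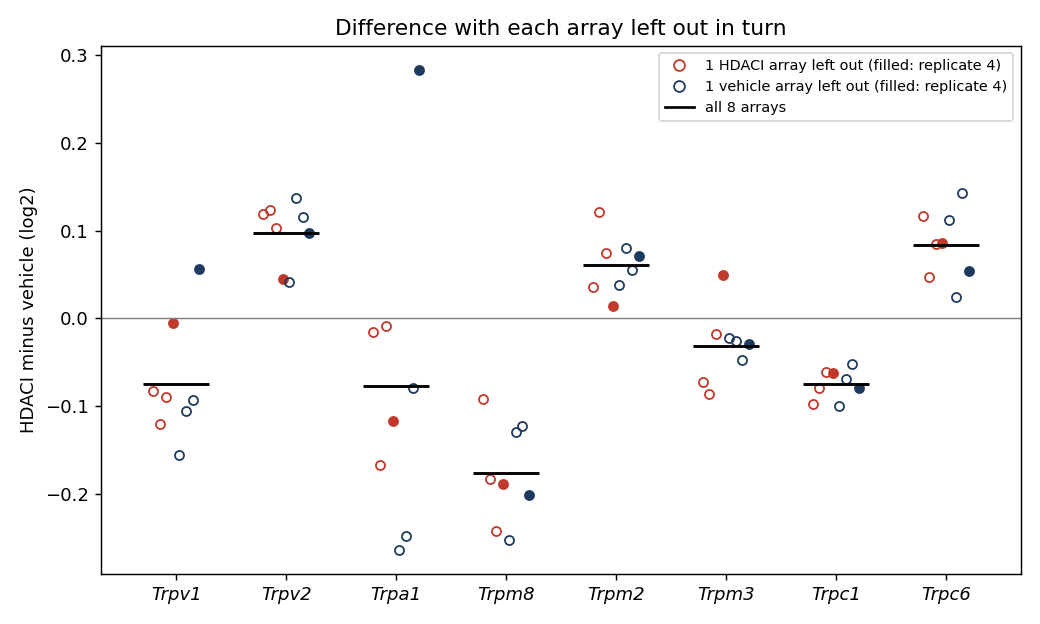
Difference between HDACI and vehicle (y axis, log2) for each TRP channel gene with all 8 arrays (black line) and with each array left out in turn (red for HDACI arrays, dark blue for vehicle arrays, filled for replicate 4). Leaving out vehicle replicate 4 moves Trpa1 from -0.08 to 0.28, and leaving out HDACI replicate 4 moves Trpm3 from -0.03 to 0.05.

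The genes whose pattern over the 8 arrays was most like each channel, by Pearson's r among 14489 genes, had r between 0.94 and 0.99. With 8 arrays these values are a description of likeness in this experiment only. For Trpc1 they were Cacna2d1, the calcium channel subunit bound by gabapentin (r = 0.98, difference -0.12), and the kinesin Kif2a (0.97, -0.13). For Trpc6 they were Erap1 (0.99) and Cpxm2 (0.98), and for Trpm3 Il16 and C7h12orf56 (0.99 each). For Trpv2 they were Tes (0.98) and Rras2 (0.95), and for Trpm2 Atf6 (0.97) and the cytokine receptor subunit Csf2rb (0.94). For Trpm8 they were Sars2 (0.97) and Prl8a4 (0.95). For Trpv1 they were the olfactory receptor Or8g37c (0.98) and Pax1 (0.97), and for Trpa1 the olfactory receptor Or52ab2 and Mzt2b (0.96 each). Some of these genes were dim, with array medians at 8.13 to 8.16. Or8g37c measured 4.06 to 4.76, Or52ab2 4.95 to 5.30 and Prl8a4 3.81 to 4.01.

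Other gene lists put the TRP channels in context, and none held a gene past adjustment by limma. All 16 pan-neuronal genes were lower in HDACI, with a median of -0.07 (log2), as were 11 of 13 nociceptor genes (median -0.15) and 11 of 12 nerve injury genes (median -0.09). Over all genes 46.9% were lower. Those with the smallest p were the synaptic vesicle genes Syt1 (-0.26 ± 0.10) and Syp (-0.12 ± 0.07), the CGRP gene Calcb (-0.31 ± 0.15) and the receptor Ret (-0.16 ± 0.08), and the neuropeptide Npy (-0.13 ± 0.05) and the cholecystokinin receptor Cckbr (-0.28 ± 0.13, SE). Without vehicle replicate 4, 8 of 13 nociceptor genes were lower and their median was -0.019. Leaving out vehicle replicate 1 gave -0.23. Without HDACI replicate 4, 13 of 16 pan-neuronal genes were lower (median -0.047). The pan-neuronal median moved to -0.12 when vehicle replicate 1 was left out. Leaving out vehicle replicate 2 gave -0.042 for pan-neuronal and -0.054 for injury genes. Genes of a list can vary together across arrays, so these counts are not independent observations. The groups overlapped in the pan-neuronal score. It was -0.12 in vehicle replicate 1, below the -0.02 to -0.01 of HDACI replicates 1 to 3.

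Glial lists were centered near 0 with all arrays in the fit. Satellite glia had 4 of 8 genes lower and a median of 0.00, led by the connexin Gja1 (0.42 ± 0.19) and Fabp7 (-0.14 ± 0.11). Myelinating Schwann cells had 6 of 8 lower and a median of -0.02, led by Drp2 (-0.14 ± 0.15) and Egr2 (-0.10 ± 0.11, SE). Most genes of non-neuronal cells were higher in HDACI. They numbered 9 of 10 for macrophages (median 0.07), 7 of 9 for endothelium (0.12), 9 of 10 for pericytes and vascular smooth muscle (0.07), 9 of 10 for fibroblasts and meninges (0.13) and 5 of 7 for T and B lymphocytes (0.03). Those with the smallest p were Cd14 (0.31) and Tyrobp (0.20) of macrophages and Egfl7 (0.17) and Tie1 (0.20) of endothelium. In the other lists they were Pdgfrb (0.15) and Des (-0.89) of pericytes and muscle, Col1a1 (0.20) and Col5a1 (0.13) of fibroblasts, and Cd4 (0.19) and Cd3e (-0.09) of lymphocytes. The counts of non-neuronal and glial lists moved with single arrays. Without HDACI replicate 4, the genes lower in HDACI were 4 of 10 for macrophages, 3 of 10 for fibroblasts, 0 of 9 for endothelium and 2 of 8 each for satellite glia and Schwann cells. Without vehicle replicate 4 they were 2 of 10, 2 of 10, 1 of 9, 1 of 8 and 3 of 8. The Schwann cell median was 0.099 without HDACI replicate 4. It was -0.087 without HDACI replicate 1 and -0.094 without HDACI replicate 2, with 8 of 8 genes lower in both fits.

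All 17 skeletal muscle genes were lower in HDACI and had an unadjusted limma p under 0.05, with a median of -1.90, led by Xirp2 (-1.21 ± 0.34) and Myl1 (-2.80 ± 0.91, SE). Over all probe sets 3.55% passed that threshold. Vehicle replicate 3 had a muscle score of -1.09, as low as the HDACI arrays. Only 2 of the 17 genes did not overlap between groups, where 2.1% of all probe sets did not. The median was -0.78 without vehicle replicates 1 and 2. With the muscle score as a covariate Trpm8 differed by -0.32, Trpa1 by -0.48, Trpv1 by -0.17 and Trpv2 by 0.01. Their unadjusted limma p lay at 0.069 or above. All arrays high in this score were vehicle, so this fit separates the score from the treatment poorly. Whether muscle tissue had a part in the TRP values was not tested.

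**Figure D5:**
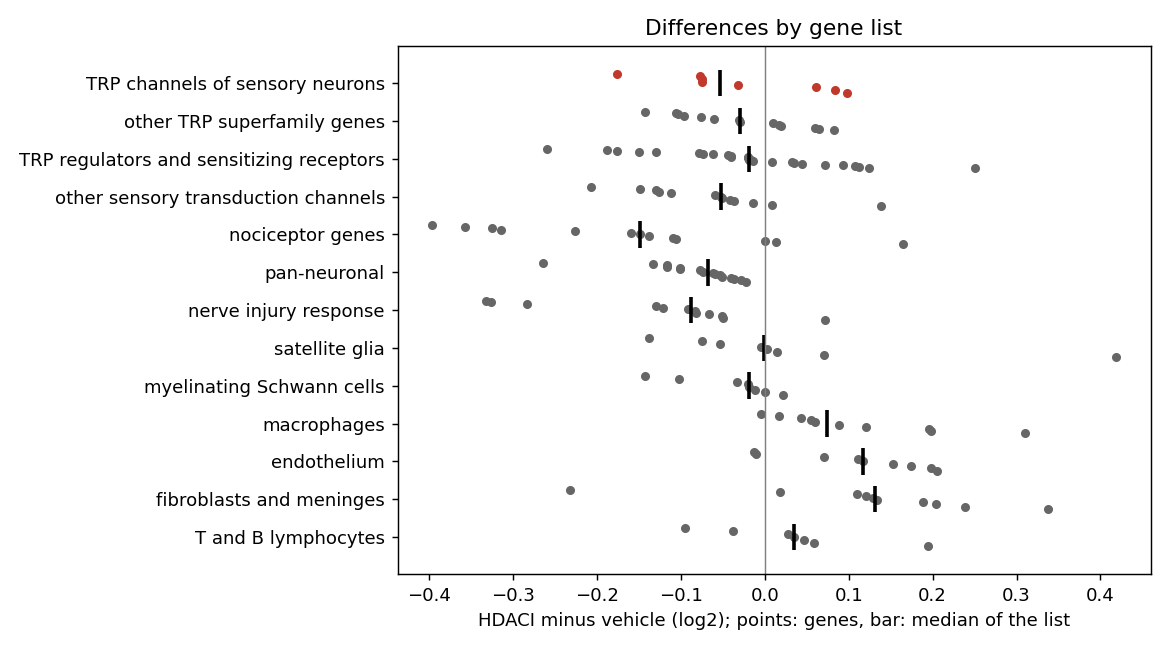
Difference between HDACI and vehicle (x axis, log2) for each measured gene of 13 lists (1 point per gene, bar for the list median), with the TRP channels of sensory neurons in red. The TRP channels lie between -0.18 and 0.10, most nociceptor genes lie below 0 and most macrophage genes above it. Skeletal muscle and pericyte lists are left out for scale.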

How the data were processed

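Injured L5 DRG were profiled on 8 Affymetrix Rat Gene 1.0 ST arrays, 4 biological replicates per group according to the methods. Groups and replicate numbers came from the sample titles, since the treatment text of all samples, vehicle included, names MS-275. The authors normalized the arrays by RMA using the R package oligo, and the deposited values are log2 intensities summarized per probe set. Software versions for that step are not given in the sources used here. Quantile normalization within RMA hides a change shared by all transcripts. Precision depends on how many arrays there are and how much a gene varies between them, as an array has no read depth.

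Gene names came from the platform annotation, updated through gene identifiers to RefSeq (GRCr8): 15209 of 28826 probe sets carried 1 symbol, 306 several and 13311 none. Per gene the probe set with the highest mean was used. Differences were fitted with limma 3.58.1 in R 4.3.3 (lmFit, eBayes) over all 28826 probe sets, with Benjamini-Hochberg adjustment, no filter and no covariate. This procedure was tested on simulated data. Beside the TRP channels, 14 gene lists were described by counts and medians. The genes named were the TRP channels, up to 2 with the smallest p of each list and the 2 most alike genes of each channel. Calca, Scn10a, Scn11a, Tac1, P2rx3, Gfra1, Gfra2, Isl1, Runx1, Atf3 and Nts were named outside this rule after their values were seen. So were Npy and Ret in vehicle replicate 4. The TRP channels and all lists were chosen with earlier results of these data known. Scores are the mean over a list of values centered per gene. At most 0.0486% of values were equal between 2 arrays. Positions are given only for RefSeq start regions (GRCr8), since the array annotation names no build. Correlations and promoter counts used Python 3.11.15 and scipy 1.17.1.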

Additional observations from a re-analysis of the deposited data

Results flagged for a closer look

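Outliers among the 4 arrays of a group were sought in 74 groups of values (Dixon's test), where chance gives about 5%, and 4 were found. None of them was a TRP channel. HDACI replicate 4 was low in the pan-neuronal score (-0.13, others -0.02 to -0.01), in the score of other sensory transduction channels (-0.14, others -0.01 to 0.01) and in the skeletal muscle score (-1.26, others -0.90 to -0.83). Vehicle replicate 1 was high in the macrophage score (0.057, others -0.10 to -0.08). Its pan-neuronal score (-0.12) was near that of HDACI replicate 4, and its score of other sensory transduction channels (-0.17) was lower. The TRP channels lowest in HDACI replicate 4 were Trpv1 and Trpm3, and those highest in it were Trpv2 and Trpm2.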

How the results depend on the processing

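Each of 21 alternatives left 0 TRP channels, 0 genes of the other lists and 0 probe sets past the adjusted threshold. The count of TRP channels past an unadjusted p of 0.05 by limma was 0, and 1 (Trpm8) with the replicate block and 1 (Trpm8) with array weights. Over all 28826 probe sets that count was 1022, and 2045 with array weights and 1758 without vehicle replicate 1. Where fewer were tested, it was 567 of the 15209 probe sets with 1 symbol. It was 556 of the 14497 genes averaged from all their probe sets. Same-numbered arrays did not deviate together (correlations from -0.28 to 0.01), so no pairing by number was seen over all probe sets. The block changed no adjusted call.

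Trpv2, Trpm8 and Trpc1 kept their sign under all 21 alternatives. Of 168 values of single channels, 12 changed sign, none of them past a threshold. With array weights Trpv1 differed by 0.0014, Trpa1 by 0.078, Trpm2 by -0.0061 and Trpm3 by 0.049. The pan-neuronal score as a covariate gave 0.038 for Trpv1, 0.025 for Trpa1 and 0.0089 for Trpm3, and the muscle score gave 0.032 for Trpm3 and -0.00093 for Trpc6. Leaving out single arrays gave -0.16 to 0.056 for Trpv1, -0.26 to 0.28 for Trpa1 and -0.086 to 0.050 for Trpm3. The median of the 8 channels ranged from -0.083 to 0.055 over these, the latter without vehicle replicate 4. The cause of these shifts was not tested.

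The intervals are as wide as 1.49 (Trpa1) and as narrow as 0.22 (Trpc1) on the log2 scale, which sets what 4 arrays per group can show. Signal over background was not analysed here.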
